A study of Mus musculus with 2 samples.

Results

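The 75 cells described here were selected on their T-cell receptor transcripts from the dermal library of imiquimod-treated mouse skin, and they make up 1.59% (95% interval 1.25 to 1.99%) of the 4721 dermal cells that passed the limits on genes and mitochondrial transcripts, out of 10634 cell barcodes in the whole series. A cell was chosen by its unique molecular identifiers (UMIs, each counting 1 captured transcript): at least 2 UMIs over the CD3 genes *Cd3d*, *Cd3e* and *Cd3g*, at least 2 over the receptor constant genes *Trac*, *Trbc1* and *Trbc2*, none of *Trdc* (the delta constant gene), fewer than 3 over the regulatory T-cell genes *Foxp3*, *Ctla4*, *Ikzf2* and *Tnfrsf4*, and under 20 UMIs of the macrophage complement genes *C1qa*, *C1qb* and *C1qc* per 10000 UMIs of the cell. A cell also had to hold 200 to 5000 genes and at most 10% mitochondrial UMIs. All of these values were used to choose the cells and none of them is a result.

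Both libraries came from wild-type C57BL/6 mice, given in the labels as 10 weeks old, whose skin was treated with imiquimod for 5 consecutive days. Imiquimod is an agonist of Toll-like receptors that induces a psoriasis-like inflammation in mice. The labels place the treatment on the ear, and the number of animals pooled is not given in the sources used here. Per the study's methods, the dermal library was sorted for live CD45+ cells and the epidermal library for all live cells. Each tissue has 1 library and no untreated library was analysed here, so no difference below has a replicate check, no test across animals was possible, and every interval covers counting error only.

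Alpha-beta T cells recognise peptides on MHC molecules through a receptor built from an alpha and a beta chain, and they include CD4+ helper and CD8+ cytotoxic cells. Gamma-delta T cells carry a gamma and a delta chain instead. In mouse skin, dermal gamma-delta T cells and some alpha-beta T cells make the type 17 cytokines IL-17A, IL-17F and IL-22, which act on keratinocytes. IL-17A and IL-17F recruit neutrophils through keratinocyte chemokines, and IL-22 drives keratinocyte proliferation.

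Among 364 dermal cells with at least 2 CD3 UMIs, the chosen cells made up 20.6%. The other cells of that pool were 102 with at least 2 *Trdc* UMIs (called *Trdc*-positive T cells here), 107 with at least 3 UMIs of the regulatory genes (regulatory T cells), 34 with fewer than 2 receptor UMIs, 28 above the C1q limit and 18 with a single *Trdc* UMI. The chosen cells held 757946 UMIs in all, with a median of 7731 per cell (1449 to 43609) and a median of 2078 genes. Medians were 10258 UMIs in the *Trdc*-positive and 6032 in the regulatory T cells. The main shares of cells with a UMI are therefore given below also after thinning every cell of at least 1000 UMIs to 1000. The others are at full depth. A further 720 C1q-high cells with no CD3 UMI, at a median of 8488 UMIs, served to show how often a T-cell transcript appears in a cell that should lack it. Too shallow to thin, and so left out of the thinned shares, were 20 of these C1q-high cells and 4 regulatory T cells. The 2 libraries shared 45 barcodes, and no chosen cell had a shared barcode.

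Several cells lay close to the limits. Exactly 2 CD3 UMIs were found in 4 chosen cells, and 12 cells that met every other limit had 1. Exactly 2 receptor UMIs were found in 4 chosen cells and 1 in 3 cells just outside. The regulatory sum was 2 in 17 chosen cells, and 10 cells were left out with a sum of 3. A single *Trdc* UMI kept 11 cells out, and C1q alone kept out 5, the lowest at 24.2 per 10000 UMIs against 14.9 for the highest chosen cell. The median CD3 sum was 11 and the median receptor sum 12, so most chosen cells lay well inside these limits.

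The name alpha-beta T cell was only partly borne out by the markers. *Trbc1* or *Trbc2* had a UMI in 75 of 75 chosen cells, and 73 would have passed the receptor limit on beta-chain UMIs alone. Beta-chain transcripts were however also present in 95.1% of the *Trdc*-positive T cells and in 10.8% of the C1q-high cells. *Trac*, the alpha constant gene (mm10 chr14:54220521-54224206), had a UMI in 48 chosen cells (64%, 95% interval 52.1 to 74.8%), against 90.7% of the regulatory and 19.6% of the *Trdc*-positive T cells and 0.972% of the C1q-high cells. After thinning, *Trac* was found in 13.3% of chosen cells, 43.7% of regulatory and 1.96% of *Trdc*-positive T cells. Since *Trac* is part of the rule, these shares describe the selection and are no result. With *Trac* missing from 27 cells, they are called chosen T cells rather than alpha-beta T cells below.

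Transcripts of the gamma constant genes *Tcrg-C1*, *Tcrg-C2* and *Tcrg-C4*, which the rule did not use, were found in 32 chosen cells (42.7%, 95% interval 31.3 to 54.6%) with 103 UMIs in all. The same genes had a UMI in 89.2% of the *Trdc*-positive T cells, 8.41% of the regulatory T cells and 0.833% of the C1q-high cells. After thinning, the shares were 9.33%, 38.2%, 1.94% and 0.143%. The highest cell held 13 of these UMIs and 21 chosen cells held at least 2, while no C1q-high cell held more than 1.

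Alpha- and gamma-chain transcripts met in the same cells. *Trac* without a gamma constant UMI was found in 27 chosen cells, both in 21, the gamma constant alone in 11 and neither in 16. Among the 32 cells with a gamma constant UMI, 65.6% (95% interval 46.8 to 81.4%) also had *Trac*, and 18 of 91 such *Trdc*-positive T cells did (19.8%, 95% interval 12.2 to 29.4%). The 2 groups were picked on *Trac* and *Trdc*, so these shares are a description and nothing is read from the gap between them. Cells with both were deep, with a median of 15353 UMIs against 5787 in the cells with *Trac* alone, and the part of depth in this overlap was not tested.

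**Figure D1:**
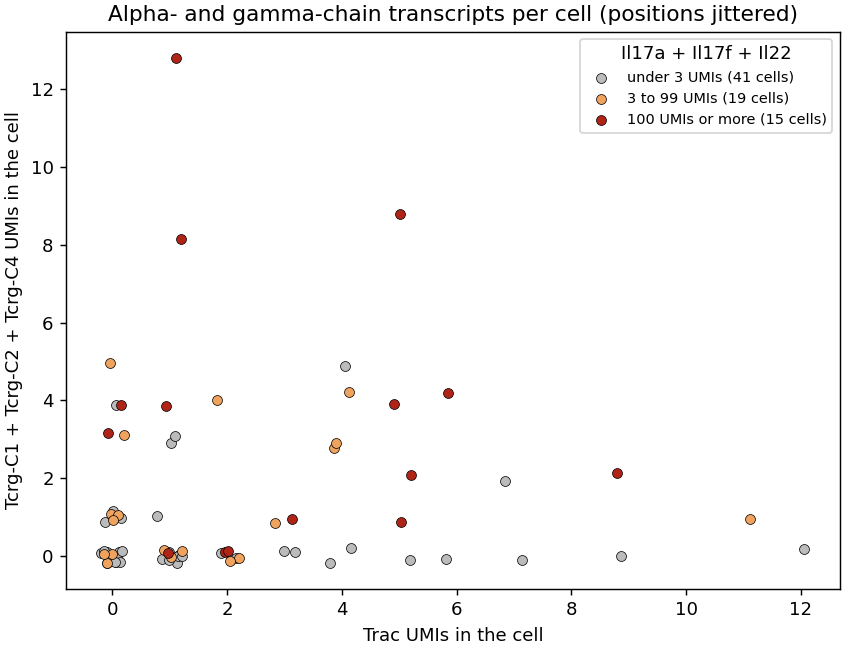
Each point is 1 of the 75 chosen T cells, placed by its *Trac* UMIs (x axis) and its summed gamma constant UMIs (y axis), jittered to separate equal values; colour gives the summed UMIs of *Il17a*, *Il17f* and *Il22*. Cells with 100 or more cytokine UMIs (15) appear mostly above the zero line of the gamma constant axis, and the cells with the most *Trac* (11 and 12 UMIs) lie at or near that line.

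Variable segments were hardly read by this 3′ library. Segments of the alpha chain had UMIs in 3 chosen cells and segments of the beta chain in 3, with *Trbv12-2* in 2 of them. The gamma or delta variable segments had 9 UMIs in 7 chosen cells (9.33%), 8 of them from *Trgv2* in 6 cells, compared with 31.4% of the *Trdc*-positive T cells. *Trdv4*, found in 18 of those, had no UMI in the chosen cells, which allows a share of cells with a UMI of up to 4% and says nothing of the segment's use. *Trav11* and *Traj18*, which form the receptor of invariant natural killer T cells, and *Trav1* and *Traj33*, which form that of mucosal-associated invariant T cells, also had no UMI.

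**Figure D2:**
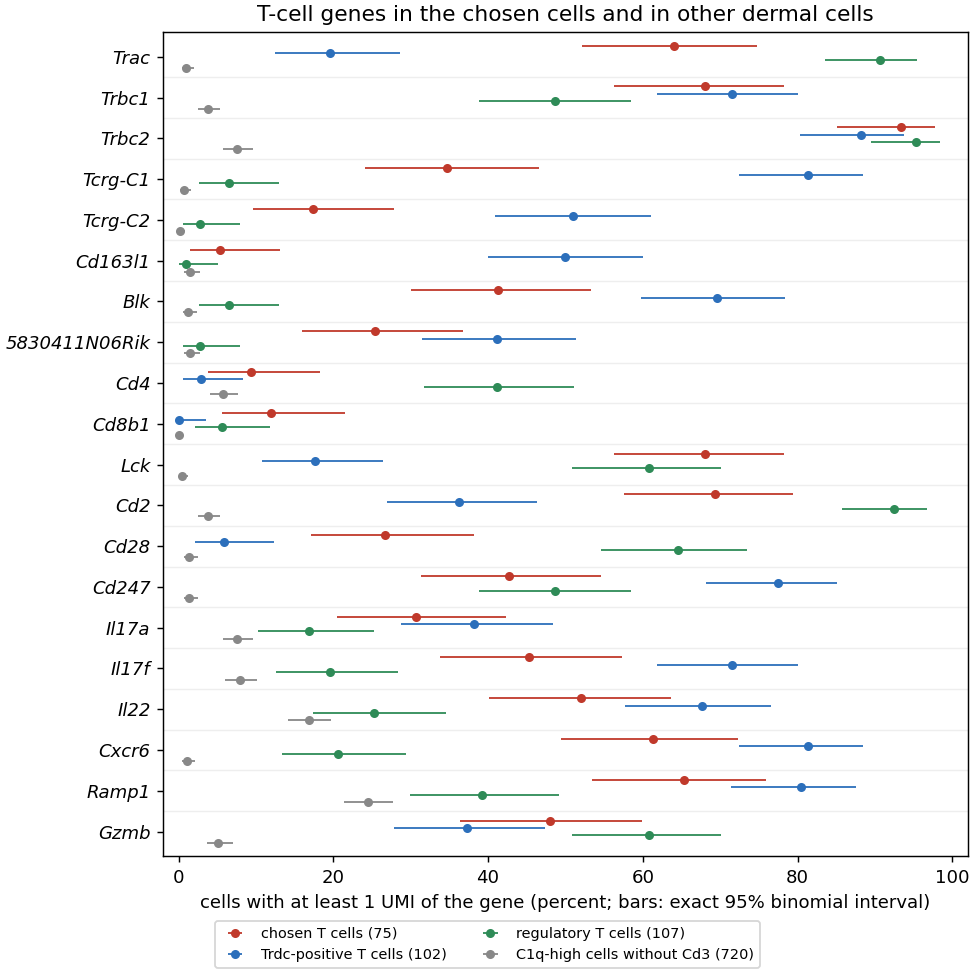
Share of cells with at least 1 UMI (x axis, percent) for 20 genes (y axis) in the chosen T cells (red), *Trdc*-positive T cells (blue), regulatory T cells (green) and C1q-high cells without CD3 (grey); points are shares and bars exact 95% binomial intervals at the depth of each cell. The chosen T cells lie between the blue and green points for *Trac*, *Tcrg-C1*, *Blk* and *Cxcr6*, and near 0 with the green ones for *Cd163l1*.

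Coreceptor transcripts were rare. *Cd4*, the coreceptor of helper T cells, had 14 UMIs in 7 chosen cells (9.33%, 95% interval 3.84 to 18.3%), with 6 UMIs in the richest. This was close to the 5.69% of C1q-high cells with a *Cd4* UMI, a gene that macrophages also express, and below the 41.1% of regulatory T cells. *Cd8a* and *Cd8b1*, which encode the chains of the CD8 coreceptor, had UMIs in 9 chosen cells (12%, 95% interval 5.64 to 21.6%), 4 with both genes and 5 with *Cd8b1* alone. *Cd8b1* had 34 UMIs in the chosen cells, up to 13 in a cell, and none in the 102 *Trdc*-positive T cells (which allows a share of cells with a UMI of up to 2.94%) or the 720 C1q-high cells, and 7 UMIs in 5.61% of regulatory T cells. No cell had both coreceptors, and 59 of 75 (78.7%, 95% interval 67.7 to 87.3%) had neither, so CD4 and CD8 lineages could not be assigned to most chosen cells at this depth. All 7 *Cd4* cells had *Trac* and none had a gamma constant UMI; of the 9 *Cd8* cells, 7 had *Trac* and 2 a gamma constant UMI.

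The type 17 cytokines were abundant in part of these cells. *Il22* had 4071 UMIs in 39 chosen cells (52%, 95% interval 40.2 to 63.7%), at 5371 UMIs per 1000000 UMIs of the group (CPM, 95% Poisson interval 5207 to 5539). *Il17f* had 1795 UMIs in 34 cells at 2368 CPM, and *Il17a* had 795 UMIs in 23 cells at 1049 CPM. C1q-high cells had a UMI of *Il22* in 16.8%, of *Il17f* in 7.92% and of *Il17a* in 7.5% of cells, at 18.9, 8.59 and 7.76 CPM. Single UMIs of these genes were read as background, and a limit of 3 UMIs over the 3 genes was used: it was passed by 34 chosen cells (45.3%, 95% interval 33.8 to 57.3%), 74.5% of *Trdc*-positive, 15.9% of regulatory T cells and 0.694% of C1q-high cells.

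**Figure D3:**
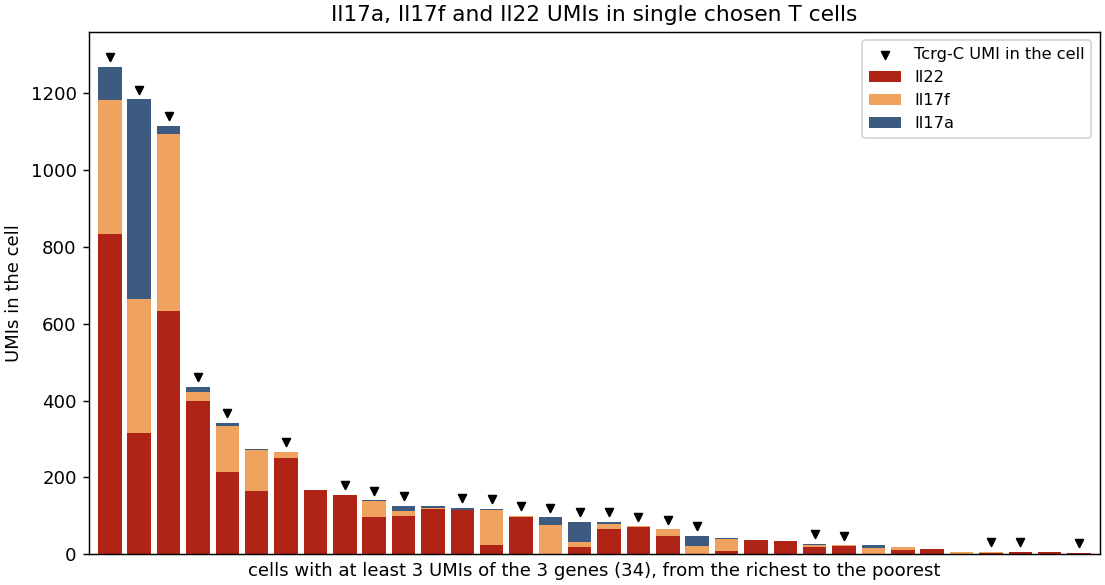
Stacked bars give the UMIs (y axis) of *Il22*, *Il17f* and *Il17a* in each of the 34 chosen T cells with at least 3 UMIs of the 3 genes, ordered from richest to poorest (x axis); a triangle marks a cell with a gamma constant UMI. The 3 richest cells stand above 1000 UMIs and carry a triangle, as do 23 of the 34.

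The cytokine UMIs lay in few cells. The highest *Il22* counts were 832, 633 and 398 UMIs, and the 5 richest cells held 59.7% of the total. *Il17f* peaked at 460, 349 and 348 UMIs, with 77.1% in the top 5. For *Il17a*, 1 cell held 519 of 795 UMIs and the next held 87 and 51; without that cell the level was 373 CPM. At 3 UMIs per gene, 9 cells were positive for all 3 cytokines, 9 for *Il17f* and *Il22*, 10 for *Il22* alone, 3 for *Il17a* and *Il17f*, 2 for *Il17a* and *Il22*, 1 for *Il17f* alone and none for *Il17a* alone. *Il22* was thus the cytokine passing in most cells (30, against 22 for *Il17f* and 14 for *Il17a*). *Iltifb*, a near-identical copy of *Il22* whose reads may be split from it, had 6 UMIs.

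Of all *Il22* UMIs in the 364 cells with CD3, the chosen cells held 45.8% (95% interval 44.7 to 46.8%), the *Trdc*-positive T cells 32% and the regulatory T cells 16.3%. The order differed for *Il17f* and *Il17a*, where the *Trdc*-positive cells held 58.2% and 58% and the chosen cells 23.9% and 25.2%. By level, *Il22* was 2.32-fold higher in the chosen than in the *Trdc*-positive T cells (log2 ratio 1.21, 95% interval 1.14 to 1.28), but the direction turned in the 43 chosen cells without a gamma constant UMI, at 1817 CPM against 2318 CPM in the *Trdc*-positive cells and 7889 CPM in the 32 chosen cells with one. For all chosen cells, the log2 ratios of *Il17f* and *Il17a* were -0.59 and -0.51. Without the richest cell of each group, *Il17f* stood at 1792 against 3135 CPM and *Il17a* at 373 against 900 CPM, a wider gap for *Il17a*. The share of cells with a UMI after thinning did not follow the level for *Il22*, at 34.7% of chosen and 40.2% of *Trdc*-positive cells, and was 24% and 53.9% for *Il17f* and 17.3% and 17.6% for *Il17a*. These shares moved with the richest cells and with the limit on regulatory genes. Leaving out the richest *Il17a* cell took its share to 10.5%, and leaving out the 17 cells with 2 UMIs of regulatory genes took *Il22* to 27.7%, *Il17f* to 13.6% and *Il17a* to 5.09%.

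Most of the cytokine transcripts came from chosen cells that also had a gamma constant UMI. Those 32 cells held 86% of the *Il22*, 90.1% of the *Il17f* and 97.7% of the *Il17a* UMIs of the group. The limit of 3 cytokine UMIs was passed by 23 of 32 cells with a gamma constant UMI (71.9%, 95% interval 53.3 to 86.3%) and by 11 of 43 cells without (25.6%, 95% interval 13.5 to 41.2%). The former were deeper, with a median of 13694 against 5981 UMIs; after thinning, which leaves the classes as they were defined at full depth, the shares were 53.1% and 18.6%. Gamma-chain-negative cells with *Trac*, the class closest to a conventional alpha-beta T cell by these transcripts, still held 507 *Il22* UMIs in 8 of 27 cells and 144 *Il17f* UMIs in 11, but 15 *Il17a* UMIs in 4. These UMIs too lay in few cells: 1 cell, with 1 *Trac* UMI, held 106 of the *Il17f* and 165 of the *Il22* UMIs. The next highest *Il22* cells held 167 and 119. Of the whole CD3 pool, all chosen cells without a gamma constant UMI held 6.42% of *Il22*, 2.36% of *Il17f* and 0.57% of *Il17a*.

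*Il17a* and *Il17f* are neighbours on chromosome 1 (mm10 chr1:20730905-20734496 and chr1:20777146-20790617), and *Il22* lies on chromosome 10 (chr10:118204942-118210047). The 250 bases before the RefSeq start sites of *Il17a* and *Il17f* are shown because 12 of the 14 *Il17a* cells also passed 3 UMIs of *Il17f* and both windows hold AGGTCA, the core half-site of the ROR family of nuclear receptors, to which *Rora* of the type 17 list belongs. Capitals mark that word on either strand (TGACCT on the opposite strand). The windows are GRCm38.p6 chr1:20730655-20730904 on the plus strand for *Il17a* and chr1:20784271-20784520 on the minus strand for *Il17f*.
Il17a: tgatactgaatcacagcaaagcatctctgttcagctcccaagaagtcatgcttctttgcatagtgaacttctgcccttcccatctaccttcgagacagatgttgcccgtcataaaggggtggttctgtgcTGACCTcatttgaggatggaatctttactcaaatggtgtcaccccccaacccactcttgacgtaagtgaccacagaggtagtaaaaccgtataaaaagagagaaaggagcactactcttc
Il17f: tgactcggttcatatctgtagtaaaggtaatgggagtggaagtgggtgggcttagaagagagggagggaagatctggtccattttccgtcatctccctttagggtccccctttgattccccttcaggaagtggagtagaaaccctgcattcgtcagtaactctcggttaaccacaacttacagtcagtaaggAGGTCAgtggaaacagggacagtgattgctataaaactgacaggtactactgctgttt
The word starts 120 bases before the RefSeq start of *Il17a*, on the opposite strand, and 58 bases before that of *Il17f*. The *Il17f* window lies inside the gene span given above, so the source of that span places the start of *Il17f* elsewhere. The word was present in 14.0% of 32851 RefSeq windows of the same length and absent from that of *Il22*. Most *Il17a* cells also passed 3 UMIs of *Il22*, 9 with *Il17f* and 2 without it, so such overlap was not particular to *Il17a* and *Il17f*. A match is a description of the sequence only.

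Against the *Trdc*-positive T cells, the chosen T cells as a whole differed in few genes. Of 3730 genes that reached 50 UMIs in the pair of groups together, 35 were at least 2-fold higher in the chosen cells (0.938%) and 58 at least 2-fold lower (1.55%), with a median log2 ratio of 0.01. Among chosen cells without a gamma constant UMI, 86 genes were higher and 133 lower, with the number tested not given. In a separate alternative with no limit on that UMI, 9 chosen cells rich in transcripts of other cell types, described further on, were left out. The lower count was then 123, again with the number tested not given. None of these counts is set against the shares above. The higher genes included proximal parts of receptor signalling: *Lck*, the kinase that starts the signal, at 153 against 29.3 CPM (5.17-fold, log2 ratio 2.37, 95% interval 1.83 to 2.97) and found in 68% against 17.6% of cells, and *Cd2*, an adhesion and costimulatory receptor, at 211 against 53.8 CPM (3.91-fold). *Lck* was also found in 14.7% against 6.86% of cells after thinning and *Cd2* in 22.7% against 4.9%. *Cd28*, the costimulatory receptor, had 41 UMIs in 26.7% of chosen cells and 6 UMIs in 5.88% of *Trdc*-positive cells (6.67% and none after thinning). The list of receptor-signalling genes did not move as a whole: of its 14 genes 10 were measured, 2 were higher, and *Cd247*, the zeta chain of CD3, was 2.41-fold lower (68.6 against 166 CPM). *Lat* and *Zap70* had log2 ratios of 0.14 and 0.09.

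The genes of gamma-delta type 17 cells were lower. All 6 measured of 7 listed genes were at least 2-fold lower in the chosen T cells, against 1.55% of all genes, and 3 of these are the gamma constant genes. *Cd163l1*, a scavenger receptor that marks dermal gamma-delta T cells, showed the widest gap: 6 UMIs in 5.33% of chosen cells and 344 UMIs in 50% of *Trdc*-positive cells, a log2 ratio of -5.03 (95% interval -6.60 to -4.01). The tyrosine kinase *Blk* (80.5 against 167 CPM) and *5830411N06Rik* (113 against 232 CPM) were lower by 2.06-fold and 2.04-fold over all chosen cells and present in 41.3% and 25.3% of them. *Blk* was at 35 CPM in the 43 chosen cells without a gamma constant UMI and 113 CPM in the 32 with one, and *5830411N06Rik* at 82.7 and 135 CPM. After thinning, *Cd163l1* was in 1.33% of chosen and 22.5% of *Trdc*-positive cells, and *Blk* in 9.33% and 15.7%. In the regulatory T cells *Blk* was found in 6.54% and *5830411N06Rik* in 2.8% of cells.

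Of 14 measured genes of the 16 on the type 17 list, *Il22* was higher (0.938% of all genes) and *Il1r1*, the receptor for IL-1, 2.36-fold lower (1.55% of all genes), and the median log2 ratio was 0.02. *Il23r*, the receptor for IL-23, was at 46.2 against 27.7 CPM, *Ccr6* at 71.3 against 83.9 CPM, *Rora* at 124 against 104 CPM and *Csf2*, which encodes GM-CSF, at 129 against 82.3 CPM. Of 10 measured genes of tissue residence none passed 2-fold in either direction over all chosen cells, against 0.938% and 1.55% of all genes, and their median log2 ratio was -0.35: *Cxcr6*, a chemokine receptor of resident T cells, was at 366 against 486 CPM and *Cd69*, which retains T cells in tissue, at 252 against 207 CPM. *Cxcr6* was at 210 CPM in the 43 chosen cells without a gamma constant UMI and at 476 CPM in the 32 with one, so its place within 2-fold rests on the latter. None of the 12 measured cell-cycle genes passed 2-fold either, with *Top2a* at 67.3 against 72.5 CPM. The type 1 and cytotoxic list had 2 of 10 measured genes higher (0.938% of all genes), *Ccl5* and *Gzma*, the latter with 112 and 74 of its 204 UMIs in 2 cells, and *Klrd1*, a natural killer cell receptor, lower. *Klrd1* had 34 of the 77 UMIs of the *Trdc*-positive cells in 1 cell, and a UMI in like shares of cells, 14.7% and 17.6%. The inhibitory receptors *Pdcd1* (PD-1, log2 ratio -1.66) and *Tox*, a transcription factor of the same list (-1.09), were lower, and the costimulatory receptor *Icos* was higher (1.05).

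By the rule for naming genes, the 8 highest ratios to *Trdc*-positive T cells belonged to *Ccl5*, *Ms4a4b*, *Mcpt8*, *Lck*, *Ctla2a*, *Cd2*, *Cysltr1* and *Ly6c2*. *Ccl5*, a chemokine of cytotoxic cells, had a log2 ratio of 4.09 (435 against 25.3 CPM) but had a UMI in a like share of both groups, 20% and 18.6%. *Mcpt8*, a basophil protease, had 29 and 21 of its 68 UMIs in 2 cells. *Ctla2a*, a cathepsin inhibitor of activated T cells, was broader, at 676 against 152 CPM and in 73.3% against 33.3% of cells (33.3% and 6.86% after thinning). The 8 lowest were *Cd163l1*, *Tnfrsf9*, *Mmp3*, *Cxcl10*, *Pmp22*, *Tcrg-C1*, *Cxcl3* and *Trf*. *Tnfrsf9*, the costimulatory receptor 4-1BB, was at 13.2 against 149 CPM, with 58 of the 183 UMIs of the *Trdc*-positive cells in 1 cell, and the fibroblast protease *Mmp3* had 101 of 238 there in 1 cell.

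**Figure D4:**
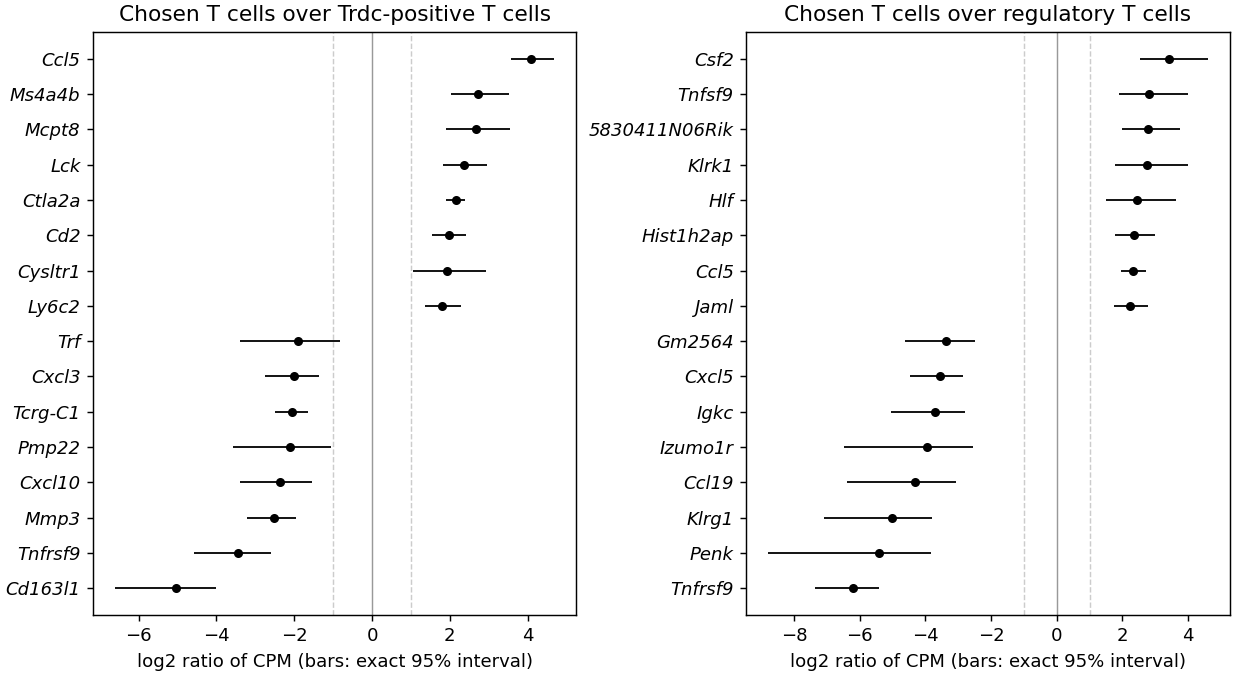
Log2 ratio of CPM (x axis) of the chosen T cells over *Trdc*-positive T cells (left) and over regulatory T cells (right) for the 8 highest and 8 lowest genes by the naming rule (y axis); points are ratios, bars exact 95% intervals for counting error, and dashed lines mark 2-fold. *Ccl5* lies highest on the left (4.09) and *Tnfrsf9* lowest on the right (-6.21).

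Against the regulatory T cells the differences were wider. Of 3342 genes tested, 68 were at least 2-fold higher in the chosen cells (2.03%) and 205 at least 2-fold lower (6.13%). The higher count was 37 among chosen cells without a gamma constant UMI, with the number tested there not given, so it is not set against 2.03%. The rule separates these groups by 4 regulatory genes, which were left out. Other genes of regulatory T cells were lower as well, 5 of 7 measured: *Tnfrsf9* at 13.2 against 1028 CPM (log2 ratio -6.21), *Klrg1* at 5.28 against 193 CPM, *Izumo1r* at 3.96 against 71.3 CPM, *Tnfrsf18*, which encodes GITR, at 72.6 against 680 CPM, and the IL-2 receptor chain *Il2ra* at 35.6 against 163 CPM. *Areg* and *Capg* of the same list had log2 ratios of -0.39 and -0.09. Receptor and costimulatory genes were also lower, 5 of 13 measured, with *Cd5* at -2.92, *Cd28* at -1.87 and *Cd2* at -1.64 on the log2 scale, and *Lck* at -0.19.

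The type 17 genes were higher than in regulatory T cells in 6 of 12 measured (2.03% of all genes), with none at least 2-fold lower and a median log2 ratio of 1.07. This contrast depends on the limit on regulatory genes, since a regulatory sum under 2 moves 17 chosen cells to the regulatory T cells. The chosen cells then held 27.7% of *Il22*, 13.6% of *Il17f* and 5.09% of *Il17a* UMIs in the CD3 pool. At the main limit those shares were 45.8%, 23.9% and 25.2%. All ratios below are at the main limit. *Csf2* stood at 129 against 11.5 CPM (10.8-fold), *Il22* at 5371 against 1671 CPM, *Il17f* at 2368 against 1056 CPM and *Il23r* at 46.2 against 17.3 CPM. For *Il17f*, 1 regulatory T cell held 512 of 918 UMIs, and without the richest cell of each group the levels were 1792 and 476 CPM. *Il17a*, at 1049 against 533 CPM, had a log2 ratio of 0.98, whose size depends on single cells. Of its UMIs, 1 chosen cell held 519 of 795 and 1 regulatory T cell 381 of 463. Without the richest cell of each group the levels were 373 and 96.1 CPM, a wider gap in the same direction. That comparison was added after seeing the data. In the 43 chosen cells without a gamma constant UMI, *Il17f* (563 CPM) and *Il17a* (57.3 CPM) were below the regulatory T cells and *Il22* stood at 1817 CPM. For *Il17f* that order rests on 1 regulatory T cell: without it the regulatory T cells stood at 476 CPM, below these chosen cells. Among the named genes, *Klrk1*, the activating receptor NKG2D, was found in 40% against 5.61% of cells, *Jaml*, an adhesion receptor of epithelial T cells, in 69.3% against 12.1%, and the circadian transcription factor *Hlf* in 33.3% against 7.48%. After thinning the shares were 13.3% and none for *Klrk1*, 20% and 2.91% for *Jaml* and 10.7% and 0.971% for *Hlf*. *Tnfsf9*, the ligand of 4-1BB, was at 84.4 against 11.5 CPM, in the opposite direction to its receptor. *Penk*, the enkephalin precursor, had 2 UMIs in the chosen and 121 in the regulatory T cells, 55 of them in 1 cell, and *Ccl19*, *Igkc*, *Cxcl5* (98 of 208 UMIs in 1 regulatory T cell) and *Gm2564* were the other genes named as lower. Markers of other cell types moved with this comparison: 3 of 5 measured fibroblast genes (983 against 2628 CPM for the whole list), 2 of 3 neutrophil genes (3433 against 7492 CPM) and the B-cell gene *Ighm* (log2 ratio -2.37) were lower in the chosen cells, against 6.13% of all genes. Of 7 measured macrophage genes, *Pf4* was higher (1.08) and *Apoe* lower (-1.10). *Pf4* had 189 of its 355 UMIs in 1 chosen cell, and without that cell stood at 222 CPM, against 221 CPM in the regulatory T cells. The part of markers of other cell types in the result was not tested.

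Of 19 genes for receptors of neural signals, *Ramp1* had the most UMIs. This subunit of the receptor for the sensory neuropeptide CGRP had 414 UMIs in 49 chosen cells (65.3%, 95% interval 53.5 to 76%), at 546 CPM, compared with 592 CPM in *Trdc*-positive T cells, 250 CPM in regulatory T cells and 33.4 CPM in C1q-high cells. After thinning it was found in 30.7%, 31.4%, 12.6% and 3.86% of cells. *Calcrl*, which pairs with RAMP1 to form that receptor, had 1 UMI in 1 chosen cell and none in the *Trdc*-positive cells. *Ramp3* had 32 UMIs, while *Adrb1*, *Tacr1*, *Vipr1*, *Vipr2* and *Nmur1* had none; a gene at 0 could have up to 3.96 CPM. *Ramp1* was found in 30 of 32 cells with a gamma constant UMI (757 CPM) and in 19 of 43 without (248 CPM).

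Within the chosen cells, the 34 with at least 3 type 17 cytokine UMIs differed from the other 41 in many genes. Of 1707 genes, 92 (5.39%) were at least 2-fold higher and 95 (5.57%) at least 2-fold lower, at median depths of 11880 and 5981 UMIs. A gamma constant UMI was found in 23 of the 34 and 9 of the 41 cells. Among chosen cells without one, 30 genes were higher, with the number tested there not given, so this count is not set against 5.39%. The higher genes included *Csf2* at 203 against 16.7 CPM, *Ccr6* at 107 against 16.7 CPM with *5830411N06Rik* found in 41.2% against 12.2% of cells, and *Blk* was found in 76.5% against 12.2% of cells. All 3 measured gamma-delta type 17 genes and 4 of 7 measured type 17 genes were higher, against 5.39% of all genes. *Ramp1* was at 771 against 203 CPM, *Cxcr6* at 520 against 130 CPM and *Cd69* at 343 against 113 CPM. *Cxcr6* and *Cd69* were the 2 higher of 7 measured genes of tissue residence, against 5.39% of all genes. *Nr4a2* of that list was lower (log2 ratio -1.94), against 5.57% of all genes. Among the named genes, *Fam83a* and *Prr29* were both found in 47.1% of the cytokine-rich cells, against 9.76% and 4.88%. These shares move with depth: after thinning *Blk* was in 14.7% against 4.88%, *Fam83a* in 5.88% against 4.88% and *Prr29* in none of either. By level, *Fam83a* was at 111 against 13.3 CPM and *Prr29* at 103 against 13.3 CPM. At such levels few UMIs are left after thinning, so the thinned shares do not decide whether these 2 genes differed.

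Of 4 measured genes of the type 2 list, *Il13* and *Areg* were at least 2-fold higher, against 5.39% of all genes, and *Gata3* and *Crlf2* had log2 ratios of -0.51 and 0.22. *Areg*, which encodes the epithelial growth factor amphiregulin, was at 236 against 43.3 CPM, with 44 of its 121 UMIs in 1 cell. *Il13*, a type 2 cytokine, had 66 of its 69 UMIs in 1 cell, which held 23 *Il22* UMIs, 1 gamma constant UMI and no *Trac*. *Il4* had 1 UMI and *Il5* had 2. Of 7 measured cell-cycle genes 3 were higher, *Top2a*, *Ube2c* and *Tubb5* (log2 ratio 1.38), against 5.39% of all genes, and *Pcna*, *Stmn1*, *Hmgb2* and *Birc5* had log2 ratios of 0.28, 0.30, 0.48 and 0.67. *Top2a* and *Ube2c* were 5.54-fold and 7.27-fold higher in the cytokine-rich cells, with *Top2a* in 47.1% against 9.76% of cells (8.82% and 7.32% after thinning) and *Ube2c* in a like share, 14.7% and 14.6%, with 38 of its 105 UMIs in 1 cell.

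*Ccl5* and *Gzma* lay almost wholly in a few cells poor in type 17 cytokines. *Ccl5* was at 8.73 CPM in the cytokine-rich and 1087 CPM in the other cells, and all 7 cells with at least 3 of its UMIs (93, 57, 55, 52, 39, 20 and 6) were among the latter; 2 of the 7 had *Trac*. Of these 7 cells, 4 had no *Gzma* and at most 1 *Gzmb* UMI (those with 52, 39, 20 and 6 *Ccl5* UMIs), and the cells with 39 and 20 were rich in neutrophil markers. *Ms4a4b* had 82 of 83 UMIs in the other cells. *Gzma*, a granzyme of cytotoxic cells, had 112, 74 and 14 UMIs in 3 cells out of 204 in all. The 2 richest also had 3 and 2 UMIs of *Ncr1*, a receptor of natural killer cells and group 1 innate lymphoid cells, no *Trac*, and CD3 sums of 3 and 2. Of these 2 cells, 1 held 32 UMIs of the natural killer receptor *Klra4*. *Ncr1* had a UMI in 4 chosen cells, 1 of them with *Trac*, and its highest count, 7 UMIs, was in a cell with no *Gzma* and no *Trac*. *Ifng* had 21 UMIs in 8 chosen cells, with 7 and 6 in the highest, the latter the cell with the most *Il22*, which was 67.7% of all 31 *Ifng* UMIs in the CD3 pool. *Gzmb* had 436 UMIs in 36 chosen cells and a log2 ratio of 0.82 towards the cytokine-rich cells.

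Genes of other cell types were part of the contrast between cytokine-rich and other chosen cells. Genes lower in the cytokine-rich cells included *Bgn*, *Fcgr2b*, *Cd300c2*, *Cd63*, *Ifi27l2a* and *Clec4n*, 4 of 5 measured macrophage genes, 3 of 3 neutrophil genes and 5 of 5 fibroblast genes, against 5.57% of all genes. Single cells held most of the fibroblast UMIs among the other chosen cells, with 254 of 363 for *Dcn* and 53 of 69 for *Col1a1*. Over all chosen cells, the 9 macrophage markers summed to 3383 CPM (9 of 9 with a UMI, *Fcer1g* the highest, which some lymphocytes also express), against 22971 CPM in the C1q-high cells and 4072 CPM in the *Trdc*-positive T cells. The 5 neutrophil markers summed to 3433 CPM (5 of 5, led by *S100a8*), the 5 dendritic cell markers to 2275 CPM (5 of 5, led by *Cd74*) and the 6 fibroblast markers to 983 CPM (6 of 6, led by *Dcn*). Keratinocyte markers were near 0, at 22.4 CPM with *Krt5*, *Krt14*, *Krt1* and *Dsp* at 0, as were B-cell markers, at 27.7 CPM with *Cd79a* and *Ms4a1* at 0, and endothelial markers, at 30.3 CPM with *Cdh5* and *Kdr* at 0. Mast cell and basophil markers summed to 170 CPM (8 of 8, led by *Mcpt8*).

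At least 1% of UMIs fell on 1 of these lists in 9 chosen cells, 8 of which had under 3 cytokine UMIs. The highest values were 5.86% neutrophil, 3.33% dendritic cell, 3.01% macrophage and 1.73% fibroblast. Without these 9 cells, a choice made after seeing the data, *Il22* had 4064 UMIs in 35 of the other 66 cells, the count of genes lower in the cytokine-rich cells was 55 (number tested not given), and *Pf4*, a macrophage and platelet chemokine, went from 468 to 170 CPM over all chosen cells. *Lck* was then at 173 CPM and *Ramp1* at 620 CPM.

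The 7 *Cd4* and 9 *Cd8* cells were too few to characterise either lineage. With 46484 and 99621 UMIs, 371 genes were tested, of which 11 were at least 2-fold higher in the *Cd4* cells (2.96%) and 33 lower (8.89%). Both measured neutrophil genes and all 3 measured fibroblast genes were among the lower ones, with 385 of the 434 *S100a8* and 254 of the 258 *Dcn* UMIs of the *Cd8* cells in 1 cell. Without the 9 cells rich in other cell types, 7 genes were higher and 21 lower, with the number tested not given. By the naming rule, which leaves out genes with 50% or more of the UMIs in 1 cell, the genes named as higher were *H2-Q7*, a non-classical MHC gene, at 817 against 161 CPM, and *Ptpn18*, *Jund*, *Hspa1a*, *Cd53*, *H2-K1* and *Eif3k*. *Actb*, also named, had a log2 ratio of 0.92. *Ifi27l2a* and the macrophage and platelet chemokine *Pf4* had higher ratios (3.28 and 2.92) but 38 of 65 and 34 of 40 UMIs of the *Cd4* cells in 1 cell. *Ramp1* had 3 UMIs in 1 *Cd4* cell and 53 UMIs in 5 *Cd8* cells, and *Nfkbia*, *Tagln2*, *Tubb5*, *Selenow*, *Lgals3*, *Edf1* and *Thy1* were the other genes named as lower. *Il17f* had 2 UMIs in the *Cd4* and 462 in the *Cd8* cells, of which 460 were in 1 cell that also had gamma constant UMIs. *Il22* had 167 and 826 UMIs, or 167 and 193 without that cell. Single cells held most of these as well: all 167 were in 1 *Cd4* cell, and 155 of the 193 in 1 *Cd8* cell with a gamma constant UMI.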

How the data were processed

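The authors deposited 1 matrix of UMI counts per tissue (31053 genes), made with Cell Ranger (version 3.0.2 in the matrix headers) on mm10, from Chromium 3′ v3 libraries. The counts are not normalized. Totals were 41258087 UMIs in the dermis and 108768396 in the epidermis. The members and gene lists were chosen with earlier results of these data known.

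Counts were summed over the cells of a group and given as CPM, as log2 ratios with a pseudocount of 0.5 UMI and exact conditional binomial intervals, or as shares of cells with exact (Clopper-Pearson) intervals, all at 95% and for counting error only. A count of 0 was read as up to 3 counts. A gene was called at 2-fold or more, among genes that reached 50 UMIs in the pair of groups together; rule and gate genes were left out. Named genes were the genes of the lists and, per comparison, the 8 highest and 8 lowest ratios among genes found in at least 10% of cells of the higher group, with under 50% of its UMIs in 1 cell, leaving out mitochondrial, ribosomal protein and receptor segment genes. The study's own limit on mitochondrial UMIs was 5%; 10% was used here and 5% as an alternative. The study sorted out doublets and removed predicted ones in its own analysis; all deposited barcodes were read here. Scrublet (scanpy 1.11.5) marked 0 dermal doublets on its own threshold, so the 230 highest scores (8 chosen cells) were left out only as an alternative. Positions came from GENCODE M21, which held 30934 of the gene identifiers. Ratios were tested on simulated data. Some genes of the lists are not reported here.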

Additional observations from a re-analysis of the deposited data

Results flagged for a closer look

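The epidermal library was outside the comparisons above, yet 102 of its cells met the same rule, with a median of 29450 UMIs. Of these, 96 held at least 20 UMIs of the basal keratinocyte genes *Krt5* and *Krt14*, with a median of 513 *Krt14* UMIs over all 102. The rule therefore cannot be read as selecting T cells alone there. *Trac* had a UMI in 16 of the 102. The other 6 cells had a median of 2841.5 UMIs and held 123 *Il22* UMIs in 2 cells, 10 *Il17f* UMIs in 2 and no *Il17a*. *Cd8b1* had 12 UMIs in 2 of the 6, up to 11 in a cell, and *Cd4* had none. The part of keratinocyte RNA in these values was not tested.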

How the results depend on the processing

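No paired analysis was possible because only 1 library was made per tissue. Over 16 counts and shares, 20 alternatives gave 203 values, of which 139 stayed within 1.5 times a count or within the interval of a share, and 64 moved; the causes were not tested. The chosen cells numbered 130 with CD3 and receptor sums of at least 1, 48 with *Trac* required and 43 with no gamma constant UMI. Thinning took the *Cd4* and *Cd8* shares to 2.67% each and the cytokine-rich share to 33.3%; the latter was 27.7% with sums of at least 1, 25.6% with no gamma constant UMI and 65.3% at a gate of 1 UMI. The gamma constant share was 26.2% with sums of at least 1. The *Il17a* share of T-cell UMIs was 26.8% with *Ptprc* required, 5.09% with a regulatory sum under 2, 0.57% with no gamma constant UMI and 10.5% without its richest cell. The *Il17f* share was 25.1% with *Ptprc*, 25.2% with no C1q limit, 13.6% with a regulatory sum under 2, 22.1% with sums of at least 3, 20.3% with *Trac*, 2.36% with no gamma constant UMI, 26.1% without doublets and 18.9% without its richest cell. The *Il22* share was 47% with *Ptprc*, 27.7% with a regulatory sum under 2, 44.4% and 43.9% with sums of at least 1 and 3, 38.6% with *Trac*, 6.42% with no gamma constant UMI, 49.1% without doublets and 40.2% without its richest cell.

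Genes higher and lower than in *Trdc*-positive T cells numbered 162 and 205 at 20 UMIs per gene, 9 and 14 at 200, and 57 and 93 as means over cells. The higher ones were 149 with sums of at least 1 and 86 with no gamma constant UMI, and the lower ones 119 with *Trac*, 133 with no gamma constant UMI and 123 without the 9 cells rich in other cell types, an alternative chosen after seeing the data. Against regulatory T cells the counts were 213 and 495 at 20 UMIs and 17 and 51 at 200, and the higher ones 134 with sums of at least 1 and 37 with no gamma constant UMI. *Cd4* against *Cd8* cells gave 44 and 108 at 20 UMIs, 1 and 7 at 200, 7 and 21 without the 9 cells, and 7 higher with a regulatory sum under 2. Cytokine-rich against other cells gave 256 and 334 at 20 UMIs, 13 and 21 at 200, and 194 and 346 with sums of at least 1; 30 were higher with no gamma constant UMI, and the lower ones were 50 with *Trac*, 55 without the 9 cells and 51 at a gate of 1 UMI. A pseudocount of 1, at most 5% mitochondrial UMIs and a gate of 10 UMIs moved none of the values they were run on. The number of genes tested can change with the setting and is not given, so the gene counts of the alternatives are not shares of the genes tested.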
